A study of Homo sapiens with 6 samples.

Results

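The genes named RBM, for RNA-binding motif protein, were examined in MDA-MB-231 cells depleted of Sam68. A locus was taken when one of its gene symbols was RBM followed by a number, with or without a final A or B, or was RBMX, RBMX2 or RBMXL1. This gave 38 loci carrying 40 RBM symbols, of 74852 loci in the table of the series. The name is shared for a domain and not for a function, since most of these proteins carry an RNA recognition motif, a small fold that holds single-stranded RNA, but act at different steps of RNA metabolism. Some are parts of the spliceosome or choose its splice sites, others mark spliced mRNA, bring the m6A methylation enzymes to RNA, lead RNA to the nuclear exosome or work in the nucleolus. Sam68, encoded by KHDRBS1, is itself a splicing regulator that binds RNA through a KH domain, so that the comparison asked how the RNA of other RNA-binding proteins stood when this one was removed.

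MDA-MB-231 is a human triple-negative breast cancer cell line with a mesenchymal phenotype. The cells received either a non-targeting control siRNA (si-CTRL, 3 libraries) or siRNA against SAM68 (si-SAM68, 3 libraries) in a pair of transfection rounds and, according to the sample labels, were collected 24 h after the last of these. The methods of the study give a different time after transfection, with harvest in triplicate. All 6 libraries come from this single parental line, and nothing in the labels states that replicates were separate cultures, so that p-values measure the spread between these libraries. RNA was read in bulk, and fewer cells with a transcript cannot be told apart from less transcript per cell.

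The SAM68 pool held 4 siRNAs, shown here because their sequences define the depletion to which every value refers. Sense strands are written, and capitals mark the mRNA stretch that pairs with positions 2 to 8 of the guide strand, the seed.
siSAM68_1: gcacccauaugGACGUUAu
siSAM68_2: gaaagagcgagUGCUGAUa
siSAM68_3: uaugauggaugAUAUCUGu
siSAM68_4: aaagaucucugUAUUGGGa
All 4 match the coding sequence of KHDRBS1 on the plus strand of GRCh38. The sites of siSAM68_1, siSAM68_2, siSAM68_3 and siSAM68_4 lie at chr1:32042603-32042621, chr1:32030383-32030401, chr1:32036912-32036930 and chr1:32031595-32031613. In GENCODE 29, siSAM68_4 matches 1 of the 2 coding transcripts of the gene and the other siRNAs match both.

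KHDRBS1 counted 15660, 14483 and 14737 normalized reads in the si-CTRL libraries and 583, 602 and 670 in the si-SAM68 libraries. The silenced gene was thus left with 4.13% of its control level (log2 fold change -4.60, SE 0.083, adjusted p = 2.13e-09 by limma). The libraries held between 52625492 and 82568487 reads, and 3 reads in a library were taken as the floor of detection. VIM, an intermediate filament protein of mesenchymal cells, ranged from 138300 to 173162 normalized reads and CD44 from 43246 to 68397. The hormone receptor genes PGR and ESR1 reached at most 0 and 15.2, and the epithelial genes CDH1 and EPCAM at most 4.60 and 9.20, while the keratin gene KRT18 was present in every library and rose (log2 fold change 0.35, adjusted p = 0.0144 by limma). In si-SAM68 replicate 2 the locus of the ribosomal RNA precursor took 15.1% of the reads, against 1.83% to 3.17% in the other 5 libraries, and the RBM loci took 0.303% there and 0.350% to 0.374% elsewhere. The counts of RBM loci over all 6 libraries are followed by those without this library.

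Of the 38 RBM loci, 36 had a mean of at least 10 normalized reads and were tested together with the other loci, 18849 in all. None of the 36 was regulated at the thresholds of the study, an unadjusted p-value of at most 0.05 with a fold change of at least 1.5. In the limma fit used here 7.67% of all loci tested passed, 2.83% higher and 4.83% lower. The study made its own calls with a separate analysis, so these shares are not its yield. EdgeR and DESeq2 on the recovered reads also called 0 of the 36 at these thresholds. The share of all loci passing by these tools is not given here. By limma 11 of the 36 had an unadjusted p-value of at most 0.05, 9 higher and 2 lower. Among all loci this share was 27%, 12.8% higher and 14.1% lower. The count was 6 without si-SAM68 replicate 2 (20.4% of all loci) and 7 without si-SAM68 replicate 3 (19.7%). At an adjusted p-value under 0.05 with no limit on size, 3 RBM loci passed, or 8.33% of them, against 10.7% of all loci. RBM7 and RBM12B rose, where 4.47% of all loci did, and RBM38 fell, where 6.23% did. These 3 calls did not hold when limma's variance trend was left out (adjusted p = 0.0549, 0.0721 and 0.0813). Without si-SAM68 replicate 2 only RBM7 passed, while the share of all loci fell to 4.29%.

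Changes across the RBM loci were small and precisely measured. The estimated fold change lay between 0.815 and 1.34, and for 32 of the 36 loci the 95% interval stayed within 1.5-fold in either direction, as it did for 56.2% of all loci tested. The intervals of RBM7, RBM20, RBM45 and RBM47 reached past 1.5-fold, all on the side of higher values. The median log2 fold change was 0.07, with 20 loci above 0 and 16 below, and that of all loci was 0.01, with 50.9% above 0. The RBM loci were also abundant, with a median level of 4464 normalized reads against 610.1 for all loci tested and a median standard error of 0.086 against 0.128. The si-SAM68 and si-CTRL values of 20 loci did not overlap, 11 higher and 9 lower. Among all loci 33.9% had this property, 16.6% higher and 17.3% lower. Without si-SAM68 replicate 2 the interval stayed within 1.5-fold for 30 RBM loci (49.9% of all loci). In that fit 21 RBM loci were above 0 and 15 below (50.8% and 49.2% of all loci). The groups of 21 RBM loci did not overlap (40.5% of all loci), 12 higher and 9 lower (20.1% and 20.4%).

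**Figure D1:**
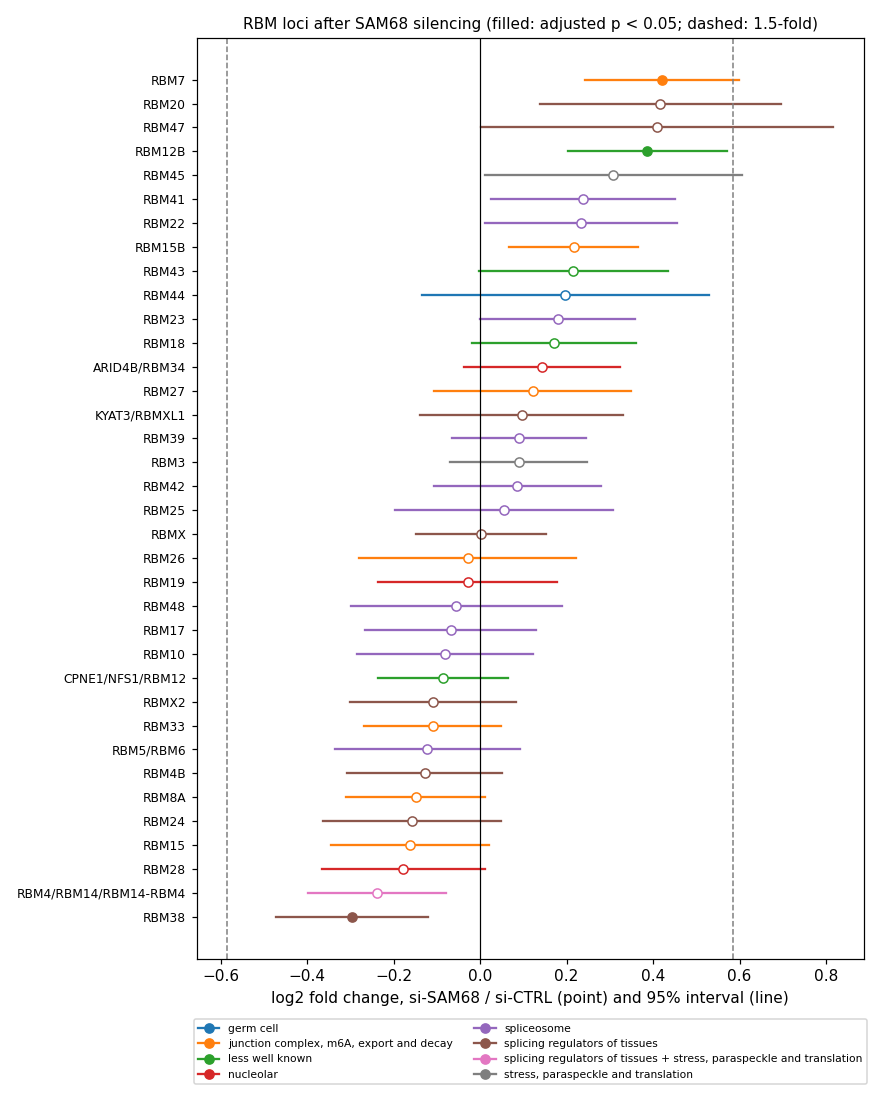
Log2 fold change (si-SAM68 over si-CTRL, x axis) of the 36 RBM loci tested, with the 95% interval as a line, colours for the role of the protein and filled points for an adjusted p-value under 0.05. All points lie between -0.30 and 0.42, inside the dashed lines at 1.5-fold, and RBM7, RBM12B and RBM38 are filled.

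RBM7 is the RNA-binding subunit of the NEXT complex, which brings short-lived nuclear RNA to the exosome for decay. Its locus (hg19 chr11:114271251-114282722) counted 3633, 3562 and 3669 normalized reads in si-CTRL cells and 4544, 4746 and 5276 in si-SAM68 cells. The lowest si-SAM68 library stood well above the highest si-CTRL library, and the controls were nearly equal. The mean rose from 3621 ± 54.1 to 4855 ± 378 (SD, n = 3 each), a log2 fold change of 0.42 (SE 0.080, 95% interval 0.24 to 0.60, adjusted p = 0.0113 by limma). In si-SAM68 replicate 3 RBM7 was highest, and without that library the log2 fold change was 0.36 and the adjusted p-value 0.0596.

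RBM12B rose by a similar amount. At hg19 chr8:94743733-94753224, it counted 3937, 4401 and 4161 normalized reads in si-CTRL cells and 5175, 5278 and 5904 in si-SAM68 cells, again without overlap and with si-SAM68 replicate 3 on top. The means were 4166 ± 232 and 5452 ± 394, a log2 fold change of 0.39 (SE 0.083, adjusted p = 0.0181 by limma). Leaving out si-CTRL replicate 3, si-SAM68 replicate 2 or si-SAM68 replicate 3 gave adjusted p-values of 0.0555, 0.0639 and 0.0899.

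RBM38 is a target of p53 that binds the mRNA of the cell cycle inhibitor p21 and also regulates splicing in muscle and blood cells. At hg19 chr20:55966454-55984384, its values were 1622, 1656 and 1709 normalized reads in si-CTRL cells and 1311, 1369 and 1384 in si-SAM68 cells. Both groups were tight and apart. The mean fell from 1663 ± 43.9 to 1354 ± 38.7, a log2 fold change of -0.30 (SE 0.079, adjusted p = 0.0419 by limma). This call lay close to the threshold, with an adjusted p-value of 0.0620 when the replicate number was a block, of 0.0598 without the filter on low values and of 0.0951 to 0.143 when any library other than si-CTRL replicate 1 was left out.

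**Figure D2:**
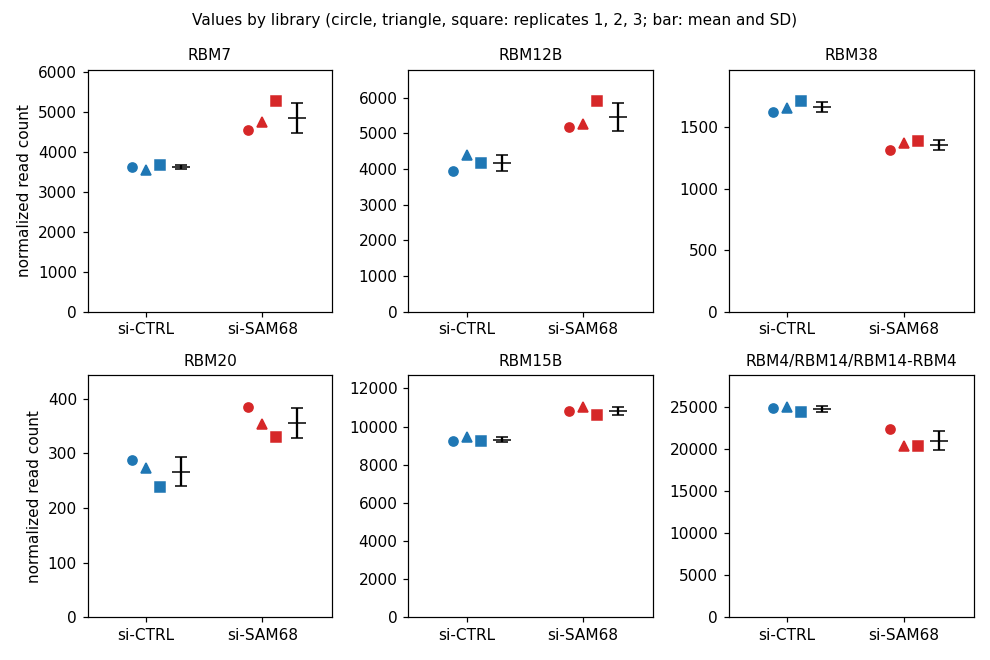
Normalized read count in each library (circle, triangle and square for replicates 1, 2 and 3, blue for si-CTRL and red for si-SAM68, bars for mean and SD) of the 3 RBM loci with an adjusted p-value under 0.05, RBM7, RBM12B and RBM38, and of the 3 next in order of adjusted p-value, RBM20, the joint RBM4 and RBM14 locus, and RBM15B. In every panel the groups are apart, and the mean differs by at most 1.34-fold.

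The next 3 loci in order of adjusted p-value did not pass the threshold. RBM20, the splicing factor of titin in the heart, counted 289, 274 and 238 normalized reads in si-CTRL cells and 385, 354 and 330 in si-SAM68 cells, with a log2 fold change of 0.42 (adjusted p = 0.0604 by limma). RBM15B, a partner of the m6A writer, counted 9231, 9446 and 9237 in si-CTRL cells and 10828, 11020 and 10580 in si-SAM68 cells, with a log2 fold change of 0.22 (adjusted p = 0.0672 by limma). One locus joins RBM4, a regulator of alternative splicing, with RBM14, a protein of the paraspeckle, and the readthrough gene of both. It counted 24913, 25000 and 24401 normalized reads in si-CTRL cells against 22352, 20327 and 20375 in si-SAM68 cells, with a log2 fold change of -0.24 (adjusted p = 0.0618 by limma), and the table does not say which gene of the locus the reads came from. All 3 loci had groups that did not overlap, and all 3 passed in the fit without si-CTRL replicate 1.

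The spliceosome group held 10 loci, all tested, and none passed at the adjusted p-value. Its median log2 fold change was 0.07, with 6 loci above 0 and 4 below, and its values ran from -0.12 to 0.24. RBM22, which lies at the catalytic centre of the spliceosome, counted 6007, 4660 and 4796 normalized reads in si-CTRL cells and 6076, 6045 and 5941 in si-SAM68 cells. One control library, replicate 1, stood at the level of the depleted cells, so that the groups overlapped with all libraries (log2 fold change 0.23, adjusted p = 0.167 by limma), and without it the log2 fold change was 0.35 and the adjusted p-value 0.00323. RBM41, a protein of the minor spliceosome, counted 837, 819 and 821 in si-CTRL cells and 886, 1054 and 990 in si-SAM68 cells (log2 fold change 0.24, adjusted p = 0.143 by limma).

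The other members of the spliceosome group lay closer to 0. RBM39, a splicing coactivator that aryl sulfonamide drugs direct to degradation, had groups that did not overlap but a log2 fold change of only 0.09, with means of 18096 ± 520.0 and 19260 ± 679 normalized reads (adjusted p = 0.442 by limma). Its paralog RBM23 had a log2 fold change of 0.18 (adjusted p = 0.184). The span of RBM23 is covered over 18542 bp by the locus of DAD1, which had a log2 fold change of -0.36 (adjusted p = 0.0109), and since the strand used in counting is not stated, reads of the pair cannot be told apart where they overlap. RBM42 (0.09) and RBM25, a factor of the 5′ splice site (0.05), were slightly above 0 on the log2 scale. RBM48, another protein of the minor spliceosome (-0.06), RBM17, also called SPF45, which acts at the 3′ splice site (-0.07), RBM10 (-0.08) and the joint locus of RBM5 and RBM6 (-0.12) were slightly below. RBM5, RBM6 and RBM10 are related splicing regulators that have been studied as tumour suppressors, and the adjusted p-values of these 6 loci lay between 0.452 and 0.797.

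Among the splicing regulators of tissues, 8 of 9 loci were tested, beside the joint RBM4 and RBM14 locus, and their log2 fold changes spread more widely, from the -0.30 of RBM38 to the 0.42 of RBM20. RBM47, the partner of the RNA editing enzyme APOBEC1, counted 154, 251 and 223 normalized reads in si-CTRL cells and 302, 267 and 251 in si-SAM68 cells. The highest control and the lowest depleted library were almost equal, and the log2 fold change of 0.41 had a 95% interval from 0.00 to 0.82 (adjusted p = 0.183 by limma). RBM24, a close relative of RBM38 that acts in muscle, counted 999, 1143 and 1012 in si-CTRL cells and 903, 966 and 953 in si-SAM68 cells (log2 fold change -0.16, adjusted p = 0.302). RBM4B had a log2 fold change of -0.13 and RBMX2 of -0.11, with adjusted p-values of 0.338 and 0.453. RBMX2 is a component of the spliceosome that was placed beside RBMX by its name, and it is not among the loci counted in the spliceosome group.

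RBMX, the ribonucleoprotein hnRNP G, was the member with the estimate nearest to 0. It counted 13881, 13271 and 13403 normalized reads in si-CTRL cells and 13662, 13209 and 13752 in si-SAM68 cells, and the 95% interval of its log2 fold change ran from -0.15 to 0.15. RBMXL1, an intronless copy of RBMX, shares a locus with KYAT3, and this locus had a log2 fold change of 0.10 (adjusted p = 0.598 by limma). RBM11 was not tested, since a single read in si-CTRL replicate 1 and 2 reads in si-SAM68 replicate 2 were its only counts, which lies under the floor.

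The group of the exon junction complex, m6A writing, export and decay held 7 loci, of which RBM7 passed. RBM8A, the Y14 subunit of the exon junction complex that is left on spliced mRNA, counted 21922, 20006 and 19874 normalized reads in si-CTRL cells and 18236, 18450 and 19003 in si-SAM68 cells. The groups did not overlap, but the log2 fold change of -0.15 did not pass (adjusted p = 0.218 by limma). RBM15, which like RBM15B brings the m6A writer to RNA, lay on the other side of 0 from its paralog, with 2917, 2916 and 2823 in si-CTRL cells and 2392, 2774 and 2584 in si-SAM68 cells (log2 fold change -0.16, adjusted p = 0.235). RBM33, an RNA-binding protein of mRNA export, had a log2 fold change of -0.11 (adjusted p = 0.347). RBM27 (0.12) and RBM26 (-0.03), both linked to the nuclear decay of polyadenylated RNA, had adjusted p-values of 0.485 and 0.898.

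The nucleolar group held 3 loci and none passed. RBM28, a factor of ribosome assembly, counted 4614, 4116 and 3990 normalized reads in si-CTRL cells and 3522, 3825 and 3888 in si-SAM68 cells (log2 fold change -0.18, adjusted p = 0.210 by limma). RBM19, which acts in the processing of ribosomal RNA, had a log2 fold change of -0.03 (adjusted p = 0.874), and the joint locus of ARID4B and RBM34 had 0.14 (adjusted p = 0.286). RBM3, an RNA-binding protein induced by cold, counted 6954, 7411 and 7302 in si-CTRL cells and 7747, 7362 and 7941 in si-SAM68 cells (log2 fold change 0.09, adjusted p = 0.459). RBM45, found in inclusions in neurodegenerative disease, counted 661, 884 and 959 in si-CTRL cells and 997, 1038 and 1030 in si-SAM68 cells. Its groups were apart by little, with si-CTRL replicate 1 well below the other controls. The log2 fold change was 0.31 (adjusted p = 0.170), and 0.15 without that library.

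Of the germ cell genes, RBM46 had no read in any library, which allows up to 3 reads in each, and RBM44 was tested at a low level, with 149, 174 and 205 normalized reads in si-CTRL cells and 191, 203 and 207 in si-SAM68 cells (log2 fold change 0.20, adjusted p = 0.431 by limma). The remaining members have less settled roles. RBM18 (0.17) and RBM43 (0.22) had groups that did not overlap and adjusted p-values of 0.228 and 0.192. The locus that joins RBM12 with CPNE1 and NFS1 counted from 30452 to 33607 normalized reads over the 6 libraries, with a log2 fold change of -0.09 (adjusted p = 0.449), and its span contains that of RBM39 over 38735 bp. In all, 12 of the 36 loci overlapped another locus tested.

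**Figure D3:**
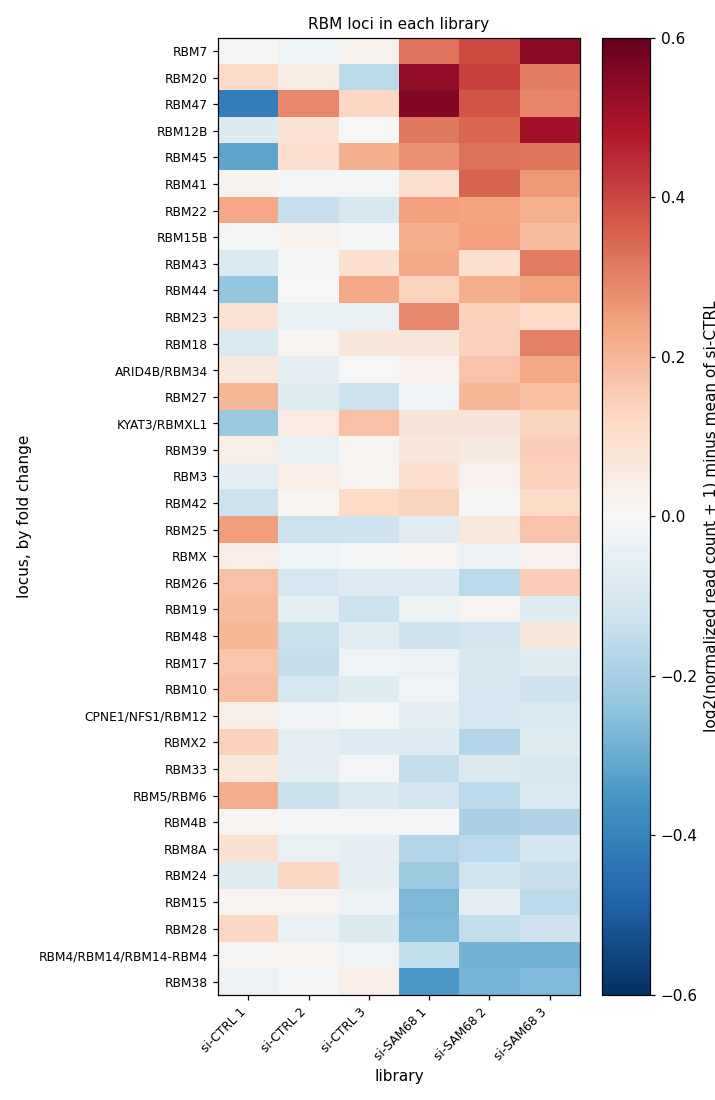
Each of the 36 RBM loci (rows, ordered by fold change) in each of the 6 libraries (columns), coloured by log2(normalized read count + 1) minus the si-CTRL mean of that locus. RBM7, RBM20 and RBM12B are red in all 3 si-SAM68 libraries and RBM38 is blue in all 3, while si-CTRL replicate 1 departs from the other controls in both directions.

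Replicate 1 of si-CTRL, the library with the fewest reads, was the control farthest from the median of its group in 25 of the 36 RBM loci, as in 54.9% of all loci tested. It was the highest control in 22 and the lowest in 12. It lay above the other controls in RBM22, RBM25, RBM19 and RBM10 and below them in RBM47 and RBM45. Without this library 7 of the 36 RBM loci passed at an adjusted p-value under 0.05, 5 higher and 2 lower, against 15.1% of all loci, and the 4 that were added were RBM20, RBM22, RBM15B and the joint RBM4 and RBM14 locus. Without si-SAM68 replicate 3 none passed by limma (3.32% of all loci), though 7 had an unadjusted p-value of at most 0.05 (19.7%). The part of sequencing depth in these results was not tested.

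**Figure D4:**
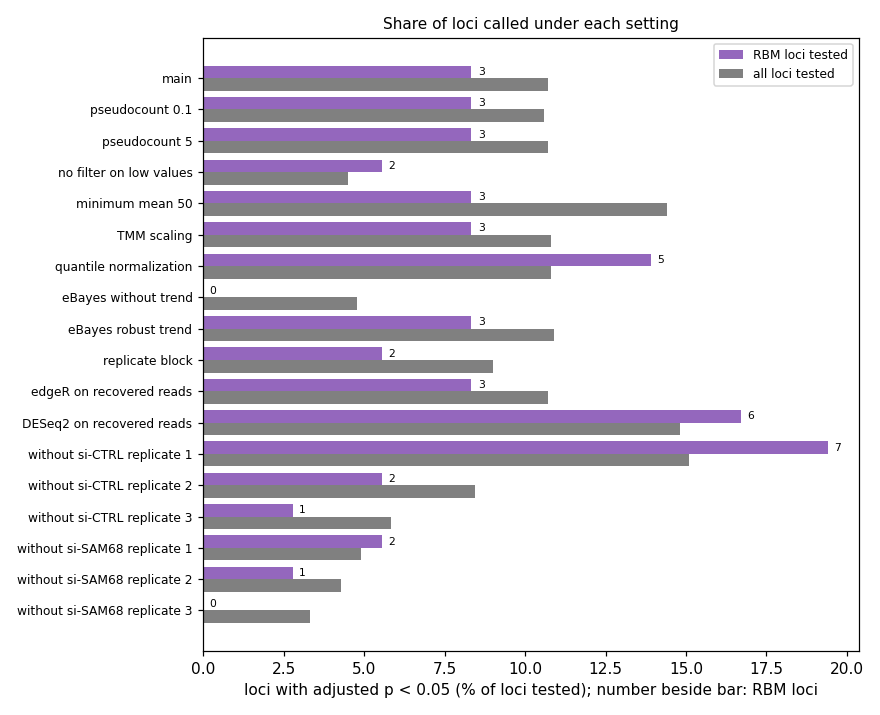
Share of loci with an adjusted p-value under 0.05 (x axis, percent of loci tested) under each way of processing the table, for the RBM loci (purple, with their number beside the bar) and for all loci (grey). The number of RBM loci ran from 0 to 7, and the share of all loci from 3.32% to 15.1%.

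Several RBM genes come as paralogs, and 7 pairs were compared by the ratio of their normalized read counts within each library, which no scaling of libraries can alter. The ratio of RBM15B to RBM15 was 3.23 ± 0.055 in si-CTRL cells and 4.20 ± 0.292 in si-SAM68 cells (SD, n = 3 each). It was 3.16, 3.24 and 3.27 in the controls and 4.53, 3.97 and 4.09 upon Sam68 depletion, without overlap. The difference of 0.38 on the log2 scale had p = 0.1 in a two-sided exact permutation test, the smallest value that 3 libraries against 3 allow, and 0.175 after adjustment over the 7 pairs. RBM12B against the RBM12 locus gave a ratio of 0.127 ± 0.0095 in si-CTRL cells and 0.176 ± 0.014 in si-SAM68 cells, also without overlap and with the same exact p-values. That locus also joins CPNE1 and NFS1, so the part of RBM12 in the ratio is not known. The RBM15B locus shares 2037 bp with the DCAF1 locus, and the RBM15 locus shares 4022 bp with the SLC16A4 locus. Reads from these stretches cannot be told apart.

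Ratios of other pairs moved less. RBM4B against the RBM4 locus (0.108 and 0.117) and RBM27 against RBM26 (4.59 and 5.12) did not overlap between groups, with the same exact p of 0.1. The RBM4B and RBM4 loci overlap over 3390 bp, where reads of the pair cannot be told apart. The spans of RBM23 and RBM39 are likewise shared with the DAD1 locus and the RBM12 locus. The ratio of RBM23 to RBM39 was 0.272 ± 0.010 in si-CTRL cells and 0.290 ± 0.025 in si-SAM68 cells, and that of RBM10 to the RBM5 and RBM6 locus was 0.250 ± 0.0059 and 0.257 ± 0.012. Both overlapped (exact permutation p = 0.4), as did RBMXL1 with KYAT3 against RBMX, whose control ratios ran from 0.118 to 0.161 (exact permutation p = 0.8). No pair could reach an exact p under 0.05 with 3 libraries per group.

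Levels of different members were compared per kb of the longest coding transcript in GENCODE 29, for the 31 loci that hold a single gene. RBM39 and RBMX were highest in si-CTRL cells, with 6392 ± 184 and 6293 ± 149 normalized reads per kb, and their ranges overlapped. They were followed by RBM8A at 4153 ± 231, RBM3 at 3341 ± 110 and RBM22 at 2201 ± 317 per kb. The lowest were RBM47 at 43.5 ± 10.4, RBM44 at 41.1 ± 6.6 and RBM20 at 36.9 ± 3.6 per kb, which also overlapped one another as neighbours. Of the 30 neighbouring pairs in this order, 18 had control ranges that overlapped. The length used sets each level, and RBM28, at 273 ± 21.3 per kb, has a longest transcript of 15507 bases of which 13112 are 3′UTR.

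**Figure D5:**
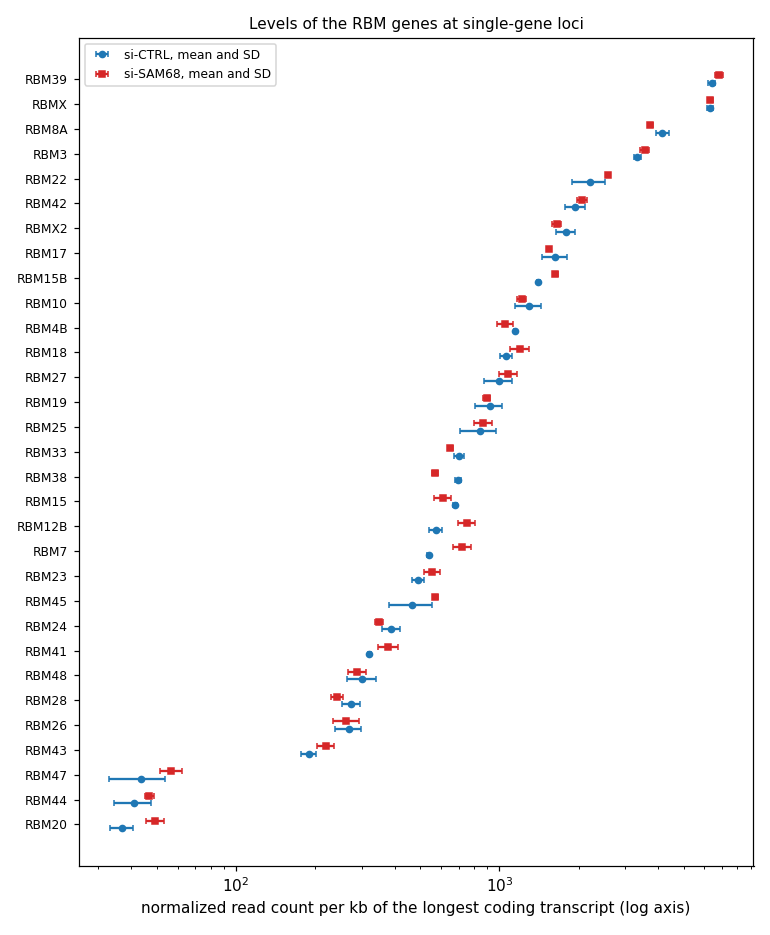
Normalized read count per kb of the longest coding transcript (x axis, log scale) for the 31 RBM genes at loci of their own, with mean and SD of the 3 si-CTRL (blue) and the 3 si-SAM68 (red) libraries. The level runs from 36.9 per kb for RBM20 to 6392 for RBM39 in si-CTRL cells, and the red points stay close to the blue ones along the whole range.

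Genes that work in complexes with the RBM proteins were then counted from a list of 59, of which 56 were tested. One of them, or 1.79%, was regulated at the thresholds of the study, against 7.67% of all loci tested. At an adjusted p-value under 0.05, 2 of them passed, or 3.57%, both lower, against 10.7% of all loci in either direction and 6.23% lower. Their median log2 fold change was -0.02, with 24 above 0 and 32 below. The locus that holds LUC7L2, a protein of the U1 snRNP, together with FMC1 counted 7223, 4865 and 5179 normalized reads in si-CTRL cells and 3675, 3667 and 3928 in si-SAM68 cells. It fell by 0.59 on the log2 scale (SE 0.133, adjusted p = 0.0217 by limma), and by 0.42 without the high si-CTRL replicate 1, under 1.5-fold. The locus that joins PABPN1, the nuclear poly(A) binding protein, with BCL2L2 fell from 1364 ± 20.9 to 1113 ± 36.4 (log2 fold change -0.29, adjusted p = 0.0456 by limma, 0.0725 with the replicate number as a block). Leaving out any one si-SAM68 library gave adjusted p-values of 0.0750 to 0.0833 for the LUC7L2 locus, and leaving out any library but si-CTRL replicate 1 gave 0.0813 to 0.174 for the PABPN1 locus.

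By complex, the partners of RBM7 in NEXT had values above 0, with log2 fold changes of 0.11 for the helicase gene SKIV2L2 and 0.23 for ZCCHC8, and neither passed (adjusted p = 0.431 and 0.291 by limma). Of the 6 m6A writer genes 4 lay above 0, among them METTL14 at 0.21, and the catalytic subunit METTL3 was at 0.04. The 5 genes of the exon junction complex, UPF3B included, stayed between -0.05 and 0.10. All 4 paraspeckle transcripts, NONO, SFPQ, PSPC1 and the NEAT1 locus, were slightly below 0, from -0.07 to -0.01. At the 3′ splice site, 9 of 11 genes of U2AF, SF1 and the U2 snRNP were below 0, against 49.1% of all loci tested. Their values ran from -0.30 for SF3A1 (adjusted p = 0.0953 by limma) to 0.21 for SF3B3 (adjusted p = 0.0927). CHERP, among the 9, was counted in a locus that also holds CALR3, MED26 and SLC35E1. The Prp19 group had 5 of 11 above 0 and the minor spliceosome 4 of 8, where 50.9% of all loci were above 0. No gene of these complexes passed.

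An siRNA can also pair through its seed with the 3′UTR of other genes, and the longest annotated 3′UTR of each RBM gene was searched on its sense strand for the 4 stretches of 7 bases written in capitals in the siRNAs, with T in place of U. At least 1 was present in 9 of the 31 single-gene RBM loci, or 29%, against 29.7% of the 11968 single-gene loci with a 3′UTR. The 9 had a median log2 fold change of -0.03 and the other RBM loci of 0.09, where all loci with and without a match had -0.01 each. RBM7, RBM12B and RBM38 had no match in that 3′UTR. RBM28 had 5 in a 3′UTR of 13112 bases. Matches to more than 1 siRNA were present in 3 of the single-gene RBM loci, of which RBM23 lay above 0 and the other two, RBM28 among them, below 0. The matches of RBM23 are shown as an example, with the match in capitals.
RBM23 with siSAM68_2: ttcctccttcTGCTGATcaaagtcctg
RBM23 with siSAM68_3: gagaagctgcATATCTGaatcttctag
In GRCh38 these lie on the minus strand, in order at chr14:22897405-22897431 and chr14:22896881-22896907. A match is a description of the letters and not a measured site.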

How the data were processed

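RNA-seq of 3 si-CTRL and 3 si-SAM68 libraries of MDA-MB-231 cells was used, with groups taken from the labels. The authors deposited a signal, the read count of each FAST DB v2016_1 locus (hg19) divided by the DESeq2 size factor of its library. The submitters' processing notes name STAR 2.4.0, SAMtools, Picard, FastQC and DESeq2, and the strand used in counting is not given in the sources used here. Every column belonged to a sample. Values divided by the smallest step of each library were whole (tolerance 0.01) for 100%, and were taken as reads. Replicates differed by more than sampling noise (chi-square per degree of freedom at least 12.6).

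Groups were compared by a moderated linear model, limma 3.58.1 under R 4.3.3 (lmFit, eBayes with trend), of log2(normalized read count + 1) for loci with a mean of at least 10, with Benjamini-Hochberg adjustment over all of them. Fold changes are on that scale. Intervals are limma's 95% intervals. EdgeR 4.0.16 and DESeq2 1.42.0 on the recovered reads, other pseudocounts (0.1 and 5), minima, scalings and variance models, the replicate block and leaving out each library were alternatives. The deviations of libraries with the same replicate number correlated over all loci (0.105, 0.231 and 0.125, against -0.125 to 0.007 for different numbers), so the numbers were treated as pairs in the blocked fit. The fits were also run on simulated counts with a single dispersion for all loci, no deviant library and no pairing of replicates. That run does not measure their error in these data.

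Every RBM locus past a threshold is named with values, as are the loci not tested, joint loci, paralog pairs, KHDRBS1 and partners past a threshold, and every other tested locus is named once in its role group. The members and lists were chosen with earlier results of these data known. SF3B2 was not analysed here, and some seed matches are not reported here. Transcript lengths and sequences come from GENCODE 29 (GRCh38).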

Additional observations from a re-analysis of the deposited data

How the results depend on the processing

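No RBM locus was regulated at the thresholds of the study under any alternative run, nor at a fold change of 2. The share of all loci at the thresholds of the study is given for the main analysis only, and that at a fold change of 2 is not given here. The median log2 fold change of the RBM loci stayed between 0.03 and 0.07. The number of RBM loci with an adjusted p-value under 0.05 was 3 in the main analysis (10.7% of all loci). It was 5 after quantile normalization (10.8% of all loci) and 6 by DESeq2 (14.8%). It was 0 in limma without a variance trend (4.77% of all loci). Before adjustment 7 RBM loci passed in that fit. The matching share of all loci before adjustment is not given here, so this count has no background to be set against. The number was 2 with the replicate block (9% of all loci) and 2 without a filter on low values (4.5%). When each library was left out it was 0 to 7 (3.32% to 15.1% of all loci). RBM7 passed in 15 of 17 alternatives, RBM12B in 13 and RBM38 in 9. The partner genes with an adjusted p-value under 0.05, 2 in the main analysis, were 1 without the filter, 0 without the trend, 1 with the replicate block, 4 by DESeq2 and 0 to 9 with each library left out (4.5%, 4.77%, 9%, 14.8% and 3.32% to 15.1% of all loci), the 9 being without si-CTRL replicate 1, and those regulated were 0 to 1 with each library left out, 0 without si-CTRL replicate 1, si-SAM68 replicate 1 or si-SAM68 replicate 2. The replicate block changed the calls of RBM38 and PABPN1 and of no other RBM or partner gene. Loci near 0 changed sign in some fits. When libraries were omitted one at a time, the log2 fold change ran from -0.011 to 0.022 for RBMX (-0.0096 after quantile normalization), from -0.0086 to 0.18 for RBM25 and from -0.12 to 0.060 for RBM26. It ran from -0.015 to 0.18 for the RBMXL1 locus, from -0.13 to 0.0078 for RBM10, from -0.14 to 0.016 for RBM17, from -0.094 to 0.065 for RBM19 and from -0.12 to 0.045 for RBM48, and these 5 changed sign only without si-CTRL replicate 1. The cause of these changes was not tested, and a fit that leaves out a library also has fewer libraries. The median standard error of the RBM loci was 0.086 on the log2 scale, and the part of depth in it was not tested. Other counts of RBM loci were also taken with each library left out, an alternative chosen after seeing the data. An unadjusted p-value of at most 0.05 was found for 6 to 13 RBM loci (19.7% to 29.4% of all loci). Groups were apart in 21 to 24 RBM loci, against 20 with all libraries. The share of all loci with groups apart also rose, from 33.9% to between 40.4% and 46.5%. The interval stayed within 1.5-fold for 30 to 34 RBM loci (49.6% to 60.2% of all loci). Between 18 and 24 RBM loci were above 0 (at most 51.1% of all loci).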
